A study of Mus musculus with 2 samples.

Results

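The report covers 9 genes of glutamate and GABA transmission among the 30223 gene symbols measured in single cells of the mouse hippocampus. They were taken by name: the vesicular glutamate transporters Slc17a6 and Slc17a7, the GABA-making enzymes Gad1 and Gad2, the vesicular GABA transporter Slc32a1, the plasma membrane GABA transporter Slc6a11 and the plasma membrane glutamate transporters Slc1a1, Slc1a2 and Slc1a3. All 9 were in the table, and they were chosen with earlier results of these data known. The cells came from C57Bl.6/J mice, either wild-type or carrying the Pigv341E knock-in on both alleles. Pigv encodes a mannosyltransferase of glycosylphosphatidylinositol anchor synthesis. For each genotype, both hippocampi of 4 mice (8 hippocampi) were dissociated and pooled into 1 droplet library. Age and sex are not given in the sources used here. Genotype and library therefore cannot be told apart. No test between the libraries was possible, and every interval below covers counting error in these cells only.

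Glutamate is packed into synaptic vesicles by the vesicular glutamate transporters, and most forebrain excitatory neurons use 1 of the main pair. Inhibitory neurons make GABA from glutamate with the glutamate decarboxylases Gad1 (GAD67) and Gad2 (GAD65) and load it through Slc32a1 (VGAT). After release, glutamate is taken up mainly by the astrocyte transporters Slc1a2 (GLT-1) and Slc1a3 (GLAST) and in part by the neuronal transporter Slc1a1 (EAAC1), while Slc6a11 (GAT-3) takes up GABA into astrocytes.

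There were 7094 wild-type and 8836 knock-in cells, with median totals of 8631 and 9608 depth-corrected values and median counts of 3122 and 3736 detected genes per cell. A doublet caller marked 61 and 209 cells, and 28 cell barcodes occurred in both libraries. Pigv stood at 0.0886 and 0.1004 per 10000. A level is the sum of a gene's values in a set of cells divided by the sum of all values there, times 10000, and pairs of values are given as wild-type and then knock-in. Cells were grouped into 37 clusters without the 9 genes, and 26 clusters were named from other marker genes, with names that end in "-like". At least 50 cells in each library were found in 13 classes and in 7 unnamed clusters, which are called by their leading genes; unnamed clusters held 14.9% of all cells. Highest, lowest and next class below refer to these 13 classes only; smaller named classes, such as endothelial and ependymal cell-like cells, are not ranked. Markers were then counted that were above 0 in at least 25% of the cells of their class. These were 9 of 10 for CA1 pyramidal, 9 of 10 for CA3 pyramidal and 10 of 11 for dentate granule neurons. They were 13 of 13 for astrocytes and 12 of 12 for microglia, but 5 of 8 for immature and 7 of 11 for cortex excitatory neurons. The names rest on the same lists and the same share of cells, so these counts describe the classes and do not test the names. The reads are tags from transcript ends and are not scaled by length, so levels are compared between classes for 1 gene, or as ratios of a gene pair between classes.

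**Figure D1:**
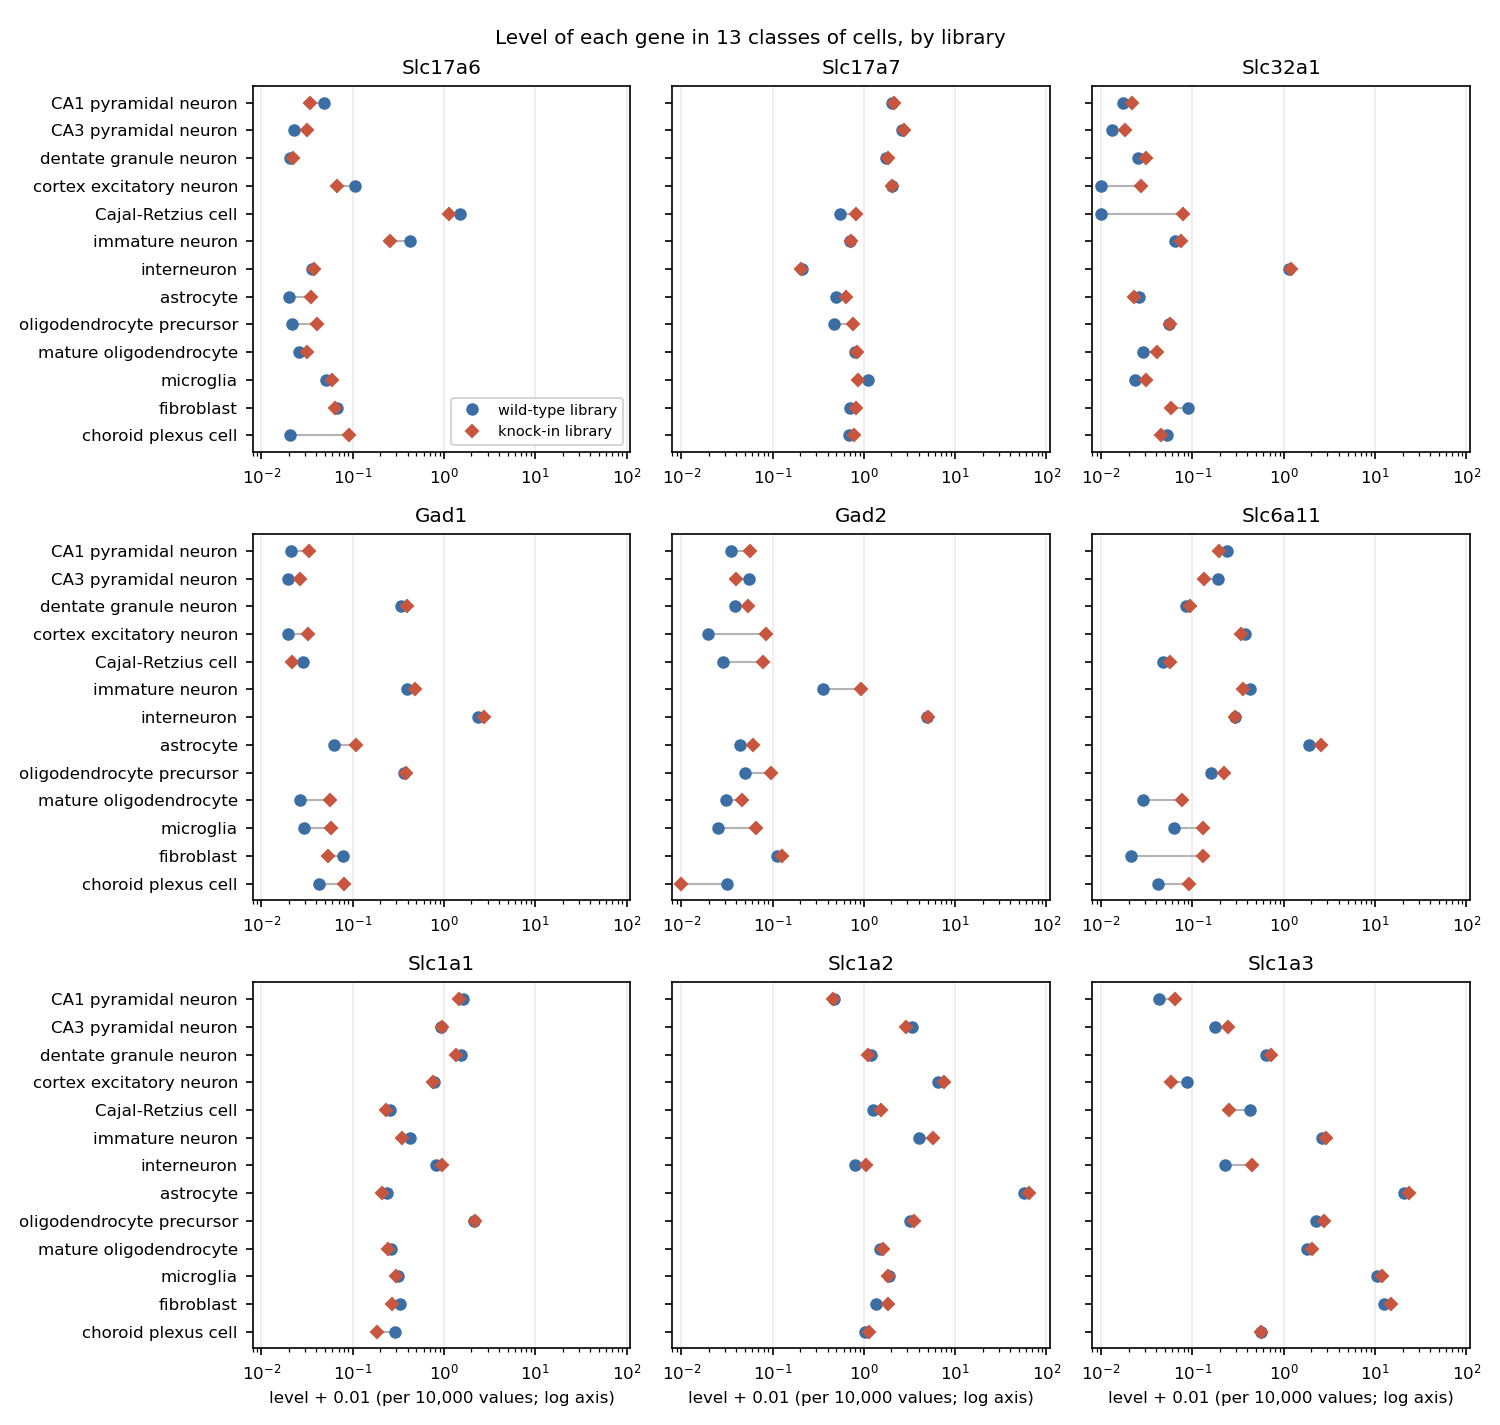
Level of each of the 9 genes (per 10000 values, with 0.01 added, logarithmic axis) in 13 classes of cells, with circles for the wild-type library and diamonds for the knock-in library. Both libraries gave each gene the same highest class, such as astrocyte-like cells for Slc1a2 at 57.3 and 63.6 and interneuron-like cells for Gad2 at 4.95 and 5.02.

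Slc17a7 (VGLUT1; chromosome 7, 45163949 to 45176142, plus strand, GRCm38) was the vesicular glutamate transporter of the principal neurons. It stood at 2.64 and 2.77 per 10000 in CA3 pyramidal neuron-like cells, the highest class in both libraries. CA1 pyramidal neuron-like cells were at 2.04 and 2.13, cortex excitatory neuron-like cells at 2.01 and 2.01, and granule cells of the dentate gyrus at 1.75 and 1.81. CA1 and cortex had nearly equal levels, and no order is read between them. Interneuron-like cells were lowest, at 0.203 and 0.196. Values of 2 or more were found in 75.2% (70.1 to 79.9%) and 80.3% (75.8 to 84.2%) of CA3 pyramidal neuron-like cells and in 3.23% (1.06 to 7.37%) and 2.37% (0.875 to 5.09%) of interneuron-like cells. The intervals are exact Clopper-Pearson 95% limits.

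Glial classes were not at 0 for Slc17a7, so a low value of this gene cannot be read as expression. Microglia-like cells stood at 1.10 and 0.845, mature oligodendrocyte-like cells at 0.796 and 0.830 and astrocyte-like cells at 0.489 and 0.620. In microglia-like cells many cells (40.9% in the knock-in library) had a Slc17a7 value above 0, but 14.8% and 17.3% had a value of 2 or more. The 3 microglia-like clusters were spread widely: the cluster led by Cst3 and Tyrobp was at 2.15 and 2.13, near the CA1 level, and the cluster led by P2ry12 and Cx3cr1 was at 0.367 and 0.469. Median totals were 6894.5 in the first of these and 8765 in the second, against 9949 and 10005 in the CA1 clusters. The Cst3 cluster also held a median of 1.85% mitochondrially encoded values, against 0.606% in the P2ry12 cluster. The part of depth and of free RNA in these glial values was not tested.

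Slc17a6 (VGLUT2; chromosome 7, 51622006 to 51671119, plus strand) was nearly absent from the principal neurons. Its level was 0.0383 and 0.0243 in CA1, 0.0129 and 0.0219 in CA3 and 0.0104 and 0.0124 in granule cells, at or under the 0.0406 and 0.0500 of microglia-like cells. Among the 13 classes it was highest in Cajal-Retzius cell-like cells, the Reln-making neurons of the outer layers, at 1.48 and 1.12. There 28.6% (17.9 to 41.3%) of 63 and 25.7% (17.6 to 35.4%) of 101 cells had a value of 2 or more, against 0.905% and 0.931% of microglia-like cells. The next class, immature neuron-like cells, was 3.56-fold and 4.58-fold lower, at 0.416 and 0.245.

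Several unnamed neuronal clusters carried Slc17a6 beside Slc17a7. The cluster led by Sgcz and Vwc2l had 0.979 and 0.921 of Slc17a6 with 1.36 and 1.35 of Slc17a7. The cluster led by Fn1 and Rab38, with 4 of 7 subiculum markers and as many CA1 markers, had 0.970 and 0.556 of Slc17a6 with 1.10 and 1.15 of Slc17a7. Levels of Slc17a6 were lower in the cluster led by Vwc2l and Cntn6, at 0.412 and 0.485, and in that led by Unc5d and Fhod3, at 0.273 and 0.248. The pair also met in single cells: in the Sgcz and Vwc2l cluster 12 of 111 wild-type and 8 of 82 knock-in cells had both genes at 2 or more. In CA3 pyramidal neuron-like cells that number was 0 of 315 and 0 of 370, with upper interval limits of 1.16% and 0.992%. There 0 cells of either library had Slc17a6 at 2 or more, so the joint number could only be 0. The ratio of Slc17a6 to Slc17a7 was 0.720 and 0.685 in the Sgcz and Vwc2l cluster, 2.72 and 1.39 in Cajal-Retzius cell-like cells and 0.0049 and 0.0079 in CA3. Slc17a7 of Cajal-Retzius cell-like cells, at 0.544 and 0.809, lay within the range of the glial classes.

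The genes of GABA synthesis and loading are shown with the 300 bases around the start of their transcripts, because the 3 varied together across clusters and because Slc32a1 shares its start region with another measured gene. The windows run from 250 bases before to 50 after the RefSeq start (GRCm38.p6, plus strand for all 3). All 9 genes had a window among the 32851 in the table. For Slc32a1 the capitals mark the 43 bases between the annotated starts of Slc32a1 and of the divergent noncoding gene Gm14204. For Gad1 they mark a GC box, the letters GGGCGG read on either strand, and the Gad2 window holds none.
Slc32a1: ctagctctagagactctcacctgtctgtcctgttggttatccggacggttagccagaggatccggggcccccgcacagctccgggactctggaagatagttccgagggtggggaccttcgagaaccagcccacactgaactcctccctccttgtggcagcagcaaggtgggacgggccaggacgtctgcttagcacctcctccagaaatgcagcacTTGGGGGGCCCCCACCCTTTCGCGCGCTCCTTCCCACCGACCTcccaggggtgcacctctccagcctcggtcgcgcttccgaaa
Gad1: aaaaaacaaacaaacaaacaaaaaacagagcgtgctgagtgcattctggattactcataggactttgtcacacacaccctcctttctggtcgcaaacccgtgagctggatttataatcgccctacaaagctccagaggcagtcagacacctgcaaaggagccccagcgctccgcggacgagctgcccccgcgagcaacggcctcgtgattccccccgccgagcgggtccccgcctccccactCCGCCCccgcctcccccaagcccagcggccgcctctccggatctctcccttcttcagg
Gad2: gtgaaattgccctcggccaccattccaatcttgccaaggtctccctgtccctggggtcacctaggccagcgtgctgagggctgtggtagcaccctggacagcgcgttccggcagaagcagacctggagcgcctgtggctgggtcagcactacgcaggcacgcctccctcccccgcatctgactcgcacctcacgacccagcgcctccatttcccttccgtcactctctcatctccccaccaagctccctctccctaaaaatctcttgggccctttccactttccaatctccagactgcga
The windows lie at chr2:158610508-158610807, chr2:70561879-70562178 and chr2:22622077-22622376. A GC box occurs in 35.7% of all windows. The letters TATAAA are in the Gad1 window and in 13.6% of all windows, and CCAAT occurs at 2 places in the Gad2 window and in 37.4% of all windows. Searches covered both strands, and no searched string contains another. The share of G and C was 63.3% in the Slc32a1, 60% in the Gad1 and 61.3% in the Gad2 window, above the median of 52.7% over all windows, at percentiles of 78.4, 70.5 and 73.8. Such matches describe letters and not binding.

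Gad2 (chromosome 2, 22622205 to 22693874, plus strand) was highest in interneuron-like cells. It stood at 4.95 and 5.02 per 10000 in that class and at 0.0155 and 0.0555 in microglia-like cells. Values of 2 or more were found in 115 of 155 wild-type and 204 of 253 knock-in interneuron-like cells. The next of the 13 classes was immature neuron-like cells, at 0.344 and 0.915.

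Slc32a1 (chromosome 2, 158610767 to 158615748, plus strand) stood at 1.12 and 1.18 in interneuron-like cells. The next class by the mean of both libraries, fibroblast-like cells, was 14.1-fold and 24.1-fold lower, at 0.0791 and 0.0489; in the knock-in library Cajal-Retzius cell-like cells were above it, at 0.0693. Principal neurons were at or near 0: 0 of 821 and 0 of 952 CA1 pyramidal neuron-like cells had a Slc32a1 value of 2 or more. Of the interneuron-like cells with Slc32a1 at 2 or more, 38 of 44 and 78 of 84 also had a Gad1 and Gad2 sum of 2 or more.

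Gad1 (chromosome 2, 70553072 to 70602014, plus strand) had a wider reach. Its highest class was again interneuron-like cells, at 2.35 and 2.76. Dentate granule neuron-like cells followed at 0.331 and 0.382, with oligodendrocyte precursor-like cells at 0.356 and 0.377 and immature neuron-like cells at 0.380 and 0.477. These 3 lay close together and were not ordered between themselves. Because granule cells are many, they held 40.4% and 28.2% of all Gad1 values, beside 32.7% and 38.1% in interneuron-like cells.

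Within the granule cell class Gad1 stood alone among the GABA genes. It was above 0 in 26.7% (24.4 to 29.1%) and 30.9% (28.5 to 33.4%) of the cells, against 1.10% and 2.31% of CA1 pyramidal neuron-like and 1.36% and 2.68% of microglia-like cells. With every cell thinned to 1000 values, the shares above 0 were 3.30% and 3.39% in granule cells and 0.244% and 0.210% in CA1. Gad2 was at 0.0290 and 0.0438 and Slc32a1 at 0.0156 and 0.0212 in granule cells, near their microglia levels. The ratio of Gad1 to Gad2 was 11.4 and 8.72 in granule cells and 0.476 and 0.551 in interneuron-like cells. Of the granule cells with Gad1 at 2 or more, 0 of 61 and 1 of 79 had Gad2 at 2 or more. In the whole class only 1 of 1392 and 5 of 1385 cells had Gad2 at 2 or more, which leaves little room for overlap. Both granule clusters showed it, at 0.328 and 0.372 in the larger and 0.374 and 0.431 in the smaller, which had C1ql2 as its first leading gene.

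Oligodendrocyte precursor-like cells had a like pattern, with a Gad1 to Gad2 ratio of 8.86 and 4.41. Gad1 was above 0 in 20.95% and 26.9% of these cells and Gad2 in 2.38% and 2.33%. In mature oligodendrocyte-like cells Gad1 was at 0.0165 and 0.0462.

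The unnamed cluster led by Lef1 and Otx2os1 held both GABA and glutamate genes. It had 81 wild-type and 220 knock-in cells, 3 of 11 cortex and 3 of 11 Lhx6 interneuron markers, and 10 cells marked as doublets. Gad2 stood there at 1.72 and 2.31, Gad1 at 0.814 and 0.863, Slc32a1 at 0.689 and 0.909 and Slc17a6 at 1.253 and 0.9502. The genes lay in different cells. The Gad1, Gad2 and Slc32a1 sum was at 2 or more with Slc17a6 under 2 in 38 and 121 cells. The reverse held in 22 and 55 cells, both passed in 2 and 1 cells, and neither passed in 19 and 43. The share with both was 2.47% (0.300 to 8.64%) and 0.455% (0.0115 to 2.51%). In interneuron-like cells 146 of 155 and 246 of 253 cells passed for the GABA sum and 1 and 1 for Slc17a6.

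**Figure D2:**
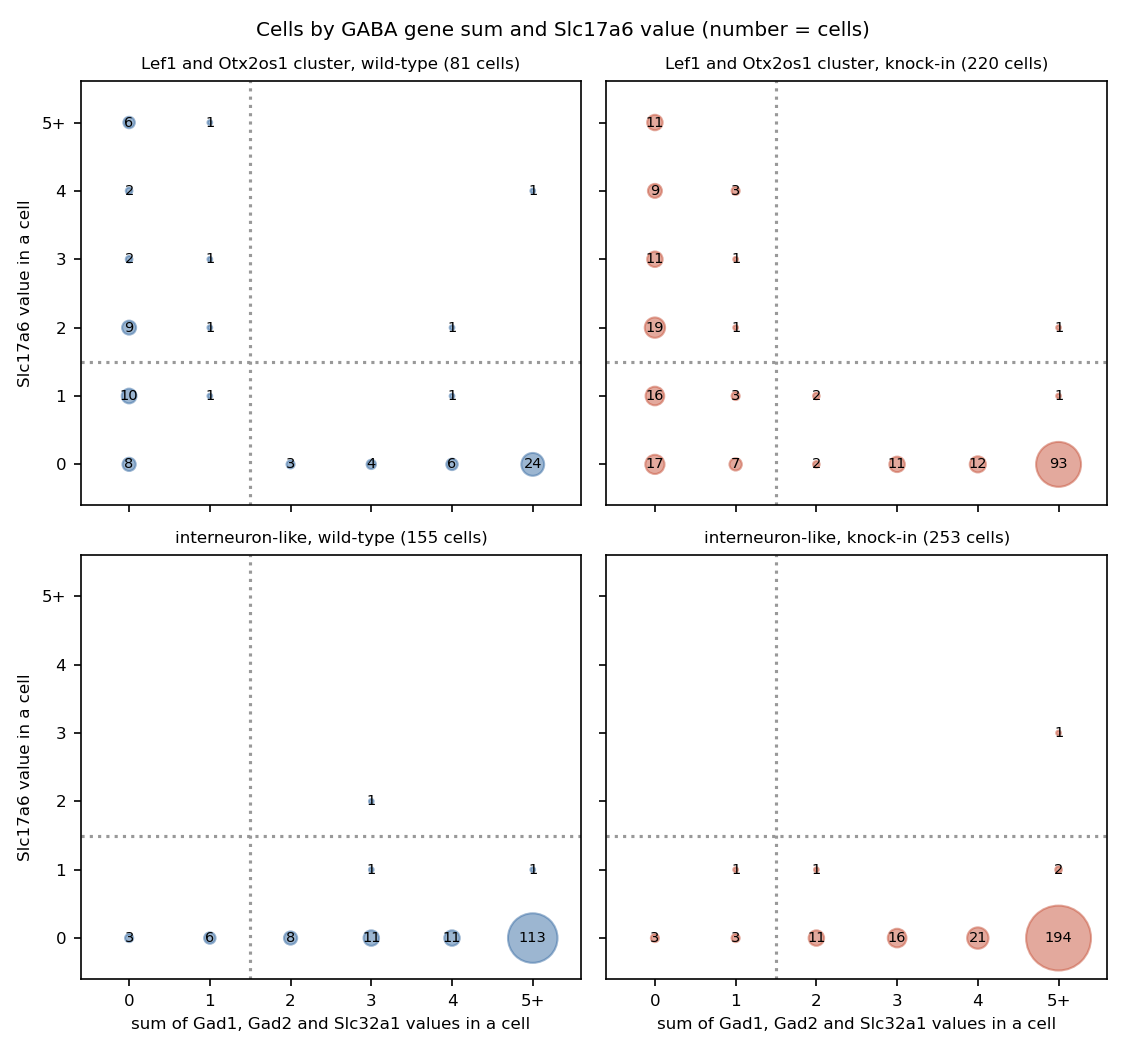
Number of cells by the sum of Gad1, Gad2 and Slc32a1 values (horizontal) and by the Slc17a6 value (vertical), for the Lef1 and Otx2os1 cluster and for interneuron-like cells in each library; disc area follows the number of cells, the last step on each axis pools values of 5 or more, and dotted lines stand between 1 and 2. In the Lef1 and Otx2os1 cluster the cells lie along both axes, with 2 wild-type and 1 knock-in cells at 2 or more on both.

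Across the 33 clusters of at least 50 cells, the gene most like Gad2 was Gm14204, with a Pearson r of 0.970 over log2 levels, and it was also the gene most like Slc32a1 (r of 0.938). These r describe clusters that share libraries and are no test. Gm14204 (chromosome 2, 158595472 to 158610723, minus strand) begins 43 bases from the Slc32a1 start, marked in the window above, and runs the other way. Gm14204 stood at 1.37 and 1.32 in interneuron-like cells, 0.651 and 0.849 in the Lef1 and Otx2os1 cluster and 0.0052 and 0.0073 in granule cells. The strand setting of the counting is not given in the sources used here; the 2 annotated genes do not overlap. Gad2 and Slc32a1 themselves had an r of 0.906, Gad1 and Gad2 of 0.821. The genes next most like Gad2 were Dlx6os1 and Dlx6, a noncoding RNA and the homeobox gene at its locus, with r of 0.925 and 0.914. Gad1 was most like Adarb2, with r of 0.871. Slc17a7 was most like Icam5, with r of 0.861, and Slc17a6 most like Casz1, with r of only 0.756.

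The glutamate transporters of glia are shown with their start windows, since these differed from those of the GABA genes in base composition. Capitals again mark a GC box, of which the Slc1a2 window holds none.
Slc1a2: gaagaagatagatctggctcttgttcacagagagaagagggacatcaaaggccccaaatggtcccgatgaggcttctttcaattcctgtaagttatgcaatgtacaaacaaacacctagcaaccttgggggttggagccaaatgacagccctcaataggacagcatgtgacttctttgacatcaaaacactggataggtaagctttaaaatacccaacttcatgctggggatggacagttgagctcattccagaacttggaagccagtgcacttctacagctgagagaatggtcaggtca
Slc1a3: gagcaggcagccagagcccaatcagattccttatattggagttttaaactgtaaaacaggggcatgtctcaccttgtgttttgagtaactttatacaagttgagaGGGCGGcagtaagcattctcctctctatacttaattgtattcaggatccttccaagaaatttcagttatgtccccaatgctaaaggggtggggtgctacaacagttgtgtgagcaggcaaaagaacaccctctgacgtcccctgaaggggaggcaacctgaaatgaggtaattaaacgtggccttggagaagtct
The windows lie at chr2:102706188-102706487 (plus strand) and chr15:8710758-8711057 (minus strand). The Slc1a2 window, like that of Gad1, lies inside the longer gene model of the GENCODE annotation. G and C made up 45.7% and 45.3% of these windows, and 72.3% and 70.3% of the windows of Slc6a11 and Slc1a1. The Slc1a3 window also holds TATAAA once, CCAAT at 3 places and TAATTA once, the last found in 5.29% of all windows.

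Slc1a2 (chromosome 2, 102658659 to 102790784, plus strand) was the most astrocyte-bound of the 3 glutamate transporters. It stood at 57.3 and 63.6 per 10000 in astrocyte-like cells, which held 73.2% and 74.9% of all its values. The next of the 13 classes, cortex excitatory neuron-like cells, was 8.88-fold and 8.39-fold lower, at 6.46 and 7.57. The astrocyte-like clusters differed: the largest was at 60.1 and 67.1, and that led by Myoc and Gfap at 36.9 and 40.4.

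Slc1a2 was uneven across neurons. The cluster led by Vwc2l and Cntn6 was at 8.54 and 8.70, CA3 pyramidal neuron-like cells at 3.37 and 2.86, dentate granule neuron-like cells at 1.20 and 1.10 and CA1 pyramidal neuron-like cells at 0.460 and 0.449. The latter was the lowest of the 13 classes in both libraries. Microglia-like cells stood at 1.87 and 1.83, but their cluster led by Cst3 and Tyrobp was at 2.59 and 3.22, so the CA3 level alone does not stand clear of that of microglia. The granule cell and CA1 levels were below that of microglia-like cells, and no neuronal expression is read from them. Values of 2 or more were found in 69.2% and 62.4% of CA3 and in 8.89% and 7.77% of CA1 cells. In the Vwc2l and Cntn6 cluster 84 of 86 and 102 of 103 cells had Slc1a2 at 2 or more, but 1 and 1 had Slc1a3 at 2 or more. The astrocyte marker list summed to 1.84 and 2.15 in CA3, where 0 of 13 markers were above 0 in at least 25% of cells, and to 2.26 and 1.85 in cortex excitatory neuron-like cells, against 117 and 119.9 in astrocyte-like cells. Slc1a3, the other main astrocyte transporter, was at 0.168 and 0.235 in CA3.

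Slc1a3 (chromosome 15, 8634124 to 8710764, minus strand) was shared by more kinds of non-neuronal cell. Astrocyte-like cells were at 20.8 and 23.4, fibroblast-like cells at 12.57 and 15.05 and microglia-like cells at 10.44 and 12.02, in the same order in both libraries. Microglia-like cells held 25.3% and 26.0% of all Slc1a3 values, astrocyte-like cells 48.3% and 48.0%. Values of 2 or more were found in 60.03% (56.2 to 63.8%) and 71.9% (68.8 to 74.9%) of microglia-like cells, against 0.122% and 0.735% of CA1 cells. In microglia-like cells the summed astrocyte markers were at 3.72 and 3.80.

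The microglia-like clusters split on this gene. The cluster led by P2ry12, Cx3cr1 and Gpr34, genes of resident microglia, stood at 14.5 and 14.5 of Slc1a3. The cluster led by Inpp5d and Arhgap45 stood at 10.5 and 11.6, and the cluster led by Cst3 and Tyrobp at 2.44 and 2.06. The Cst3 cluster held 166 of 663 wild-type and 114 of 859 knock-in microglia-like cells. Shares over the whole class are therefore not read as a difference between the libraries. Slc1a2 was lowest in the P2ry12 cluster, at 0.864 and 1.17. It stood at 2.65 and 2.30 in the Inpp5d cluster and at 2.59 and 3.22 in the Cst3 cluster, so it did not simply reverse the Slc1a3 order.

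The ratio of Slc1a2 to Slc1a3 was 2.75 and 2.72 in astrocyte-like, 0.179 and 0.152 in microglia-like and 0.107 and 0.123 in fibroblast-like cells. Mature oligodendrocyte-like cells were at 0.826 and 0.789. Interneuron-like cells, at 3.67 and 2.41, overlapped the astrocyte values, and granule cells were at 1.91 and 1.55. In CA3 it was 20.1 and 12.2, and in the Vwc2l and Cntn6 cluster 55.8 and 89.7. In CA3 and that cluster Slc1a3 was at or under 0.235, and the ratios of the libraries lay further apart than in glia.

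**Figure D3:**
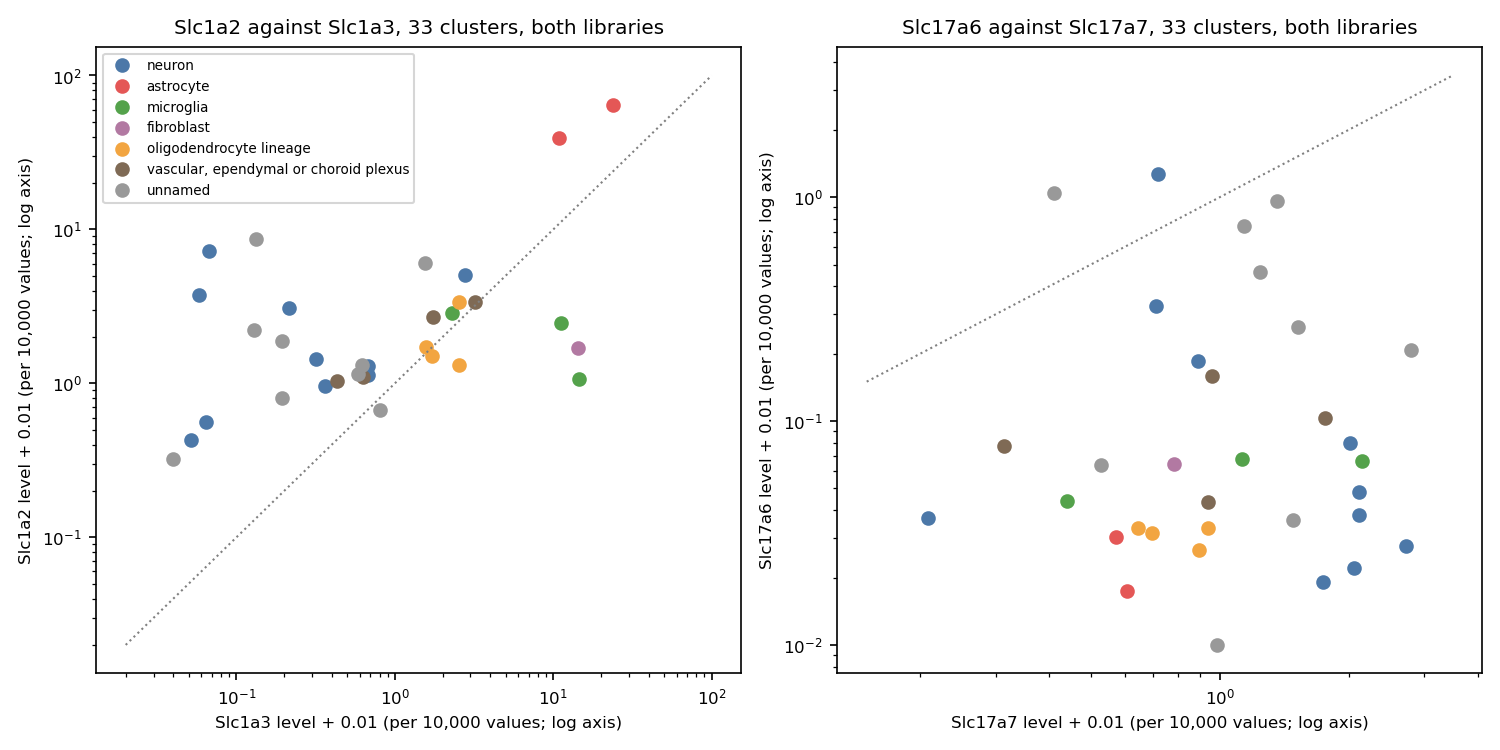
Level of Slc1a2 against Slc1a3 (left) and of Slc17a6 against Slc17a7 (right) in the 33 clusters of at least 50 cells, both libraries together, per 10000 values with 0.01 added on logarithmic axes; each point is a cluster, colours give its kind and the dotted line marks equal levels. On the left, fibroblast and 2 of the 3 microglia clusters lie below the line and the astrocyte clusters above it. Also below it are mature oligodendrocyte-like clusters with ratios of 0.518 and 0.873 and the Trpc6 and Lct cluster at 0.824. On the right, the Cajal-Retzius cluster and the Lef1 and Otx2os1 cluster lie above the line.

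Slc1a1 (chromosome 19, 28835049 to 28913960, plus strand) was higher in several neuron classes than in astrocyte-like cells. It was highest in oligodendrocyte precursor-like cells, at 2.10 and 2.19, followed among the 13 classes by CA1 pyramidal neuron-like cells at 1.62 and 1.44 and dentate granule neuron-like cells at 1.52 and 1.35. CA1 and granule cells differed by less than the libraries did within either. CA3 was at 0.922 and 0.949 and interneuron-like cells at 0.817 and 0.943. Astrocyte-like cells were at 0.2285 and 0.2002, lowest in the wild-type library, while choroid plexus cell-like cells were lowest in the knock-in library (0.281 and 0.174). The Fn1 and Rab38 cluster stood at 1.51 and 1.70. Across clusters Slc1a1 was most like Grm5, a metabotropic glutamate receptor, with r of 0.879, then Ptprr and Kcnd2.

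Slc6a11 (chromosome 6, 114131241 to 114249952, plus strand) was an astrocyte gene in these cells. Astrocyte-like cells stood at 1.88 and 2.56 and held 58.3% and 62.3% of all its values. Among the 13 classes immature neuron-like cells came next, at 0.416 and 0.348. A cluster of 13 astrocyte-like cells led by Aldoc, Agt and Mt1 stood at 13.7 and 16.0, and the largest astrocyte-like cluster at 1.85 and 2.48. Slc6a11 was itself among the 10 leading genes of that small cluster, so its level there is a description. CA1 pyramidal neuron-like cells were at 0.231 and 0.186, above the 0.0522 and 0.121 of microglia-like cells, but 1.83% and 1.37% of CA1 and 1.21% and 2.44% of microglia-like cells had a value of 2 or more, so no order is read between them. The gene most like Slc6a11 was the noncoding RNA Celrr, with r of 0.880, followed by Acsbg1, which is on the astrocyte marker list.

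Slc1a2 was most like Gm13872, with r of 0.849. Gm13872 (chromosome 2, 102737907 to 102746760, minus strand) lies within Slc1a2 on the other strand, and without the strand setting of the counting its reads and those of Slc1a2 cannot be told apart. It stood at 0.655 and 0.715 in astrocyte-like cells, 0.144 and 0.154 in cortex excitatory neuron-like cells and 0.0870 and 0.0875 in CA3. Slc1a3 was most like Gm35188, with r of 0.824, then Map4k4 and Il18.

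The libraries were then compared, to see whether the knock-in differed in these genes. A difference was counted when the log2 ratio of knock-in over wild-type (0.1 added to each level) was at least 1 in size, with a level of at least 1 per 10000 in 1 library and at least 10% of its cells above 0. Of 117 combinations of gene and class, 31 met the limits on level and cells, and 0 passed the size of 1. The same limits passed 0.302% of the genes tested in dentate granule neuron-like, 0.373% in microglia-like, 0.399% in oligodendrocyte precursor-like and 0.456% in mature oligodendrocyte-like cells. They passed 0.536% in interneuron-like, 0.589% in CA1 pyramidal neuron-like, 0.677% in fibroblast-like and 0.695% in astrocyte-like cells. The remaining classes had 1.27% (immature neuron-like), 1.3% (CA3 pyramidal neuron-like), 1.48% (cortex excitatory neuron-like), 1.7% (Cajal-Retzius cell-like) and 3.73% (choroid plexus cell-like). Pooled over classes the share was 1.04%, so that 0 of 31 lies near the background and is no result about these genes.

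The log2 ratios of the 31 ran from -0.37 to 0.48, with 23 above 0 and 8 below. The median over the 9 genes, each in its highest class, was 0.07, while the medians over all genes tested lay between -0.15 and -0.002 in the 13 classes. The most positive ratio was that of Slc1a2 in immature neuron-like cells, at 4.05 and 5.71; it turned to -0.22 with 15 principal components and to -0.11 with cells thinned to 1000. The most negative was that of Slc17a6 in Cajal-Retzius cell-like cells, which turned to 0.12 with thinned cells. In interneuron-like cells the log2 ratio was 0.22 for Gad1, 0.07 for Slc32a1 and 0.02 for Gad2. None of the 3 has a settled direction: with thinned cells Gad1 was at -0.02 and Slc32a1 at -0.46, and with 15 principal components Gad2 was at -0.02. In astrocyte-like cells Slc1a2 was 0.15 and Slc1a3 0.17 higher.

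Slc6a11 in astrocyte-like cells had a log2 ratio of 0.42, with levels of 1.88 and 2.56. It lay just outside the middle 95% of all 2013 genes tested in that class, which ran from -0.46 to 0.416. Some genes lie outside such a range by definition, and Slc6a11 was singled out here from 31 combinations. Its place in the range is therefore a description and no result about this gene. The ratio was above 0 in each alternative run that gave a value, from 0.23 to 0.61. The knock-in was higher in each of the 3 astrocyte-like clusters, at 1.85 and 2.48, 1.27 and 1.58, and 13.7 and 16.0. These clusters are parts of the same 2 libraries and are not replicates. The last of them held only 4 wild-type and 9 knock-in cells. With 1 library a genotype, the spread between mice is unknown.

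**Figure D4:**
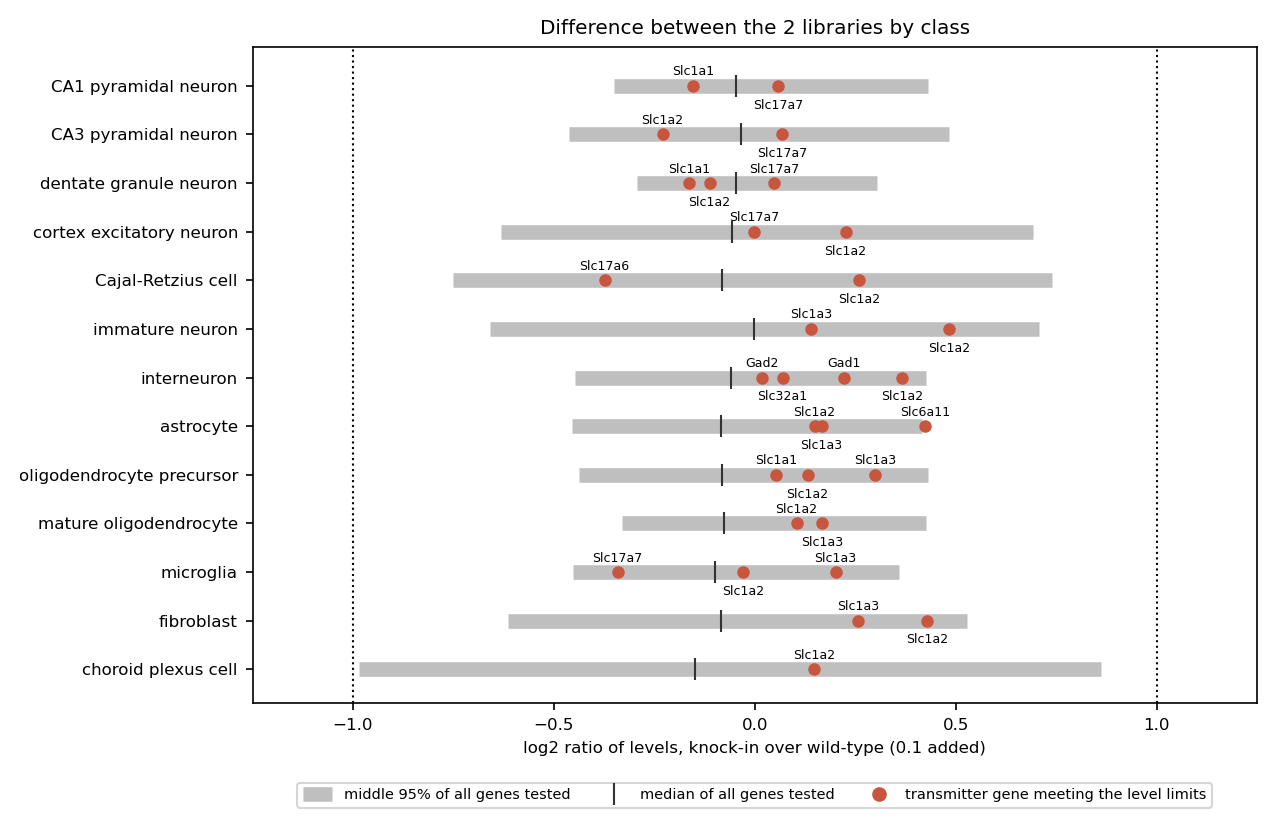
Log2 ratio of levels, knock-in over wild-type with 0.1 added, in the 13 classes; red points are the 31 combinations of gene and class that met the limits, grey bars the middle 95% and dark ticks the median of all genes tested in the class, and dotted lines the size of 1. The points run from -0.37 to 0.48, and Slc6a11 in astrocyte-like cells, at 0.42, sits at the upper end of its bar.

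In the 7 unnamed clusters 63 combinations gave 18 that met the limits, and 0 passed. The shares of all genes that passed there were 0.406% (Trpc6 and Lct), 0.921% (Vwc2l and Cntn6), 1.04% (Sgcz and Vwc2l), 1.21% (Fn1 and Rab38), 1.21% (Lef1 and Otx2os1), 2.1% (Unc5d and Fhod3) and 9.26% (mt-Rnr2 and mt-Rnr1). Slc17a6 in the Fn1 and Rab38 cluster was below the level limit, at 0.970 and 0.556, with 57.6% and 38.6% of cells above 0. Of these 7, Slc17a7 was highest in the cluster led by mt-Rnr2 and mt-Rnr1, at 2.70 and 2.92. That was above the 2.64 and 2.77 of CA3 pyramidal neuron-like cells, the highest of the 13 classes. This cluster had under 3 counted markers of any class, so its Slc17a7 level is not assigned to a cell type.

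Over all cells without regard to class, 3 of the 9 genes met the limits and 0 passed, against 0.289% of all genes. Gad2 stood at 0.177 and 0.282 in this sum, a log2 ratio of 0.47, and Slc32a1 at 0.0533 and 0.0859, a ratio of 0.28. The cells of each class are not equally many in the libraries: interneuron-like cells were 155 and 253, and those of the Lef1 and Otx2os1 cluster 81 and 220. With clusters given equal weight in both libraries, the ratios were 0.18 for Gad2, 0.11 for Slc32a1, 0.13 for Slc1a3 (0.28 unweighted) and 0.25 for Slc6a11 (0.35 unweighted). For Slc17a6 the ratio changed sign, from 0.07 to -0.09.

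Other genes of glutamate and GABA handling were taken from a list of 24, of which 12 met the limits in at least 1 class. These genes gave 46 combinations with a class, and 0 passed. Of the genes tested in the 13 classes together 1.04% passed, so 0 of 46 lies near the background. It is no result about the listed genes. The middle value of the 46 log2 ratios was 0.05. Glul (glutamine synthetase) and Glud1 (glutamate dehydrogenase) were highest in astrocyte-like cells, at 4.01 and 4.32 and at 4.78 and 4.94. Abat (GABA transaminase) was highest in interneuron-like cells, at 1.80 and 1.78. Fibroblast-like cells led for the cystine and glutamate exchanger Slc7a11, at 30.1 and 26.5, and for the GABA and taurine transporter Slc6a13, at 6.44 and 7.59; in astrocyte-like cells Slc7a11 was at 2.91 and 3.51.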

How the data were processed

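Droplet transcriptomes of 1 pooled wild-type and 1 pooled knock-in library were used as deposited. The authors deposited 1 table of whole numbers treated here as a score: totals per cell lie in a narrow range (4846 to 14501), as depth-corrected values do, so sequencing depth is unknown and no count model was used. Seurat 3.0.0 and build GRCm38 are named per the submitters' processing notes. The aligner, strand setting, cell filter and doublet removal are not given in the sources used here.

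Cells of both libraries were clustered together with scanpy 1.11.5 and igraph 0.11.9 in Python 3.11.15, with scikit-learn 1.9.0, pandas 2.3.3 and scipy 1.17.1: scaling to 10000, 2000 variable genes without the 9 genes and sex-linked genes, 30 principal components, 15 neighbours and Leiden resolution 1 (10 iterations). A marker counted when at least 25% of a cluster's cells had it above 0, at 1.5-fold or more the level elsewhere. The class with most counted markers, 3 or more, gave the name. No name was given when mitochondrial genes made up 3 or more of the 10 leading genes, when another class had more markers among them or reached over 60% of the count with at least 3, or when no marker was among them and under 50% of the list counted. These naming criteria were chosen with the clusters already in view, and the 9 genes and all lists were chosen with earlier results of these data known.

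Doublets were kept in the main setting; Scrublet ran per library with an expected rate of 6%. Comparisons took classes of 50 or more cells per library. Named genes are the 9, Pigv, listed pathway genes of at least 1 per 10000 in a class, and the 3 genes of highest Pearson r to each over log2(level + 0.1), among 9547 genes of at least 0.5 in a cluster. Some genes of the pathway list are not reported here. The size rule was tested on simulated data. Positions are those of GENCODE M21 and start windows those of RefSeq (GRCm38.p6).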

Additional observations from a re-analysis of the deposited data

How the results depend on the processing

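With no minimum level, 1 combination of gene and class passed the size of 1, Gad2 in immature neuron-like cells at 0.344 and 0.915. Its log2 ratio was 1.19, with 7.46% of 67 and 18.1% of 94 cells above 0. The share of all genes that pass without a minimum level was not computed, so this call is no result about Gad2. Under every other alternative run 0 passed. The median over the 9 genes in their highest class was 0.07 and ranged from 0.02, with cells thinned to 1000, to 0.11, with values of 1 set to 0. Of the 31 combinations, 15 kept the sign of their log2 ratio under every setting that gave a value and 16 did not, so no direction is claimed for those 16. The highest class of all 9 genes was the same under each alternative except 15 principal components, where astrocyte-like cells were not a class of their own and the highest class of Slc6a11, Slc1a2 and Slc1a3 changed. Allowing the 9 genes into the clustering, where 5 were variable enough to enter, changed no highest class. Leaving out 6 genes that differed between the libraries was chosen after seeing the data. No paired analysis was possible because each genotype is 1 pooled library, and for the same reason no replicate could be left out. Values of 1 in a depth-corrected table need not be observed molecules, which limits every level under about 0.1.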

Other observations

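The transporter genes Slc1a3, Slc7a11, Slc6a13 and Slc38a2 had high levels in fibroblast-like cells, where 7 of 11 fibroblast markers were above 0 in at least 25% of cells. Slc7a11 and Slc6a13 were among the 10 leading genes of that cluster and were not kept out of the clustering. Their levels there are therefore a description. Slc38a2, which carries neutral amino acids such as glutamine, stood at 4.35 and 4.31 per 10000 there and at 2.67 and 3.12 in mature oligodendrocyte-like cells. Slc6a12, a betaine and GABA transporter, was below the level limit, at 0.554 and 0.914. The glutamine transporter Slc38a3 was highest in choroid plexus cell-like cells, at 1.09 and 1.10, and stood at 0.803 and 1.07 in astrocyte-like cells. In neurons Slc38a3 was under the level limit but differed between the libraries. It stood at 0.0111 and 0.193 in CA1 pyramidal, 0.0097 and 0.208 in CA3 pyramidal and 0.0119 and 0.161 in granule neuron-like cells. The difference was not particular to neurons. Mature oligodendrocyte-like cells were at 0.0173 and 0.157 and microglia-like cells at 0.0174 and 0.0874. The Vwc2l and Cntn6 cluster went the other way, at 0.460 and 0.369. Over all cells the log2 ratio of Slc38a3 was 0.78, and a background common to the knock-in library was not tested.

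In the cluster led by mt-Rnr2 and mt-Rnr1, where 9.26% of all genes tested passed the size rule, Glul stood at 0.652 (wild-type) and 2.27 (knock-in). This cluster had under 3 counted markers of any class, a median of 0.707% mitochondrially encoded values and 202 and 149 cells. Gad2 was at 0.159 and 0.490 there, under the level limit. In astrocyte-like cells Glul was at 4.01 and 4.32.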
